A study of Schizosaccharomyces pombe with 2 samples.

Results

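The vacuolar protein sorting (vps) genes of fission yeast (Schizosaccharomyces pombe) encode the machinery that carries newly made hydrolases and membrane proteins from the Golgi through endosomes to the vacuole. The members were taken as all array probes whose systematic name carries a reference symbol of vps followed by a number, leaving out vps66, an acyltransferase. This gave 34 genes of the 5057 on the array, each with 1 probe. By their known complexes, 8 are ESCRT subunits, 5 are retromer subunits, 10 belong to tethering complexes (6 to HOPS and CORVET, 4 to GARP) and 11 act elsewhere. One of the last, vps71, is a subunit of a chromatin remodelling complex, whose name comes from screens for sorting mutants in budding yeast.

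In this system, ESCRT complexes gather ubiquitinated membrane proteins on endosomes and bud them into internal vesicles that are then degraded in the vacuole. Retromer does the opposite for sorting receptors, which it returns from endosomes to the Golgi so that they can be used again. HOPS and CORVET hold endosomes and vacuoles together before fusion, and GARP receives the returning vesicles at the Golgi.

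Both strains had been grown in complete YES medium and then held in an anaerobic chamber, away from oxygen, for 1.5 h. The deletion strain was ESY173, which lacks the lipid gene activator mga2 (mga2Δ below), and the control was KGY425, which the sample labels call wild type (WT below). The design text, in contrast, has sre1 deleted in both strains; this gene encodes the sterol-regulated transcription factor Sre1, and 0 of the spots of the sre1 probe were well above background in either strain. RNA of 2 biological replicate pairs was hybridised to 2 arrays of 2 colours, with mga2Δ in Cy5 on array 1 and in Cy3 on array 2. No oxygenated culture was analysed here.

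Each probe had 3 spots per array, and the median spot signals of all genes lay between 858 and 2322.5, against 18 to 62 at negative controls. The mga2 transcript itself was at least 84.95-fold lower in mga2Δ (limma adjusted p = 1.26e-05), with log2 ratios of −7.27 and −6.13. All 34 vps probes were well above background in both strains on both arrays, so none was lost to the filter on dim probes. Of their 204 spots 6 were left out as outliers and 0 were saturated. Ratios were normalized within each array to the typical gene, so they are relative to other genes. A change in total mRNA per cell cannot be read from them. Centring on spike-in RNAs instead moved the median of all genes from 0.00 to 0.20, as given below. With 2 arrays precision is limited. An SD is between the 2 arrays, and the test pooled 1 degree of freedom of each gene with the spread of all genes. Ratios below are log2 of mga2Δ over WT, and a gene passed the test at a limma adjusted p under 0.05 over all 4964 genes tested.

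The vps genes shifted little. With 8 raised and 0 lowered, 26 did not pass, and all 34 mean log2 ratios lay between −0.25 for vps1301 and 0.60 for vps60. The share raised was 23.5%, close to the 18.4% of all tested genes that were raised, so the count of calls does not set the vps genes apart. Among all genes 10.9% were lowered. By limma's unadjusted p, 12 of the 34 (35.3%) lay under 0.05, against 41.7% of all genes. A mean ratio of 0.5 or more in size was seen in 1 vps gene (2.94%), against 14.6% of all genes. The median log2 ratio of the 34 genes was 0.15, with 0.14 on each array, and that of all tested genes was 0.00.

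The direction was more uniform than the sizes. Ratios were positive on both arrays in 21 vps genes (61.8%, against 40.1% of all genes), negative on both in 5 (14.7%, against 37.6%) and of mixed sign in 8. Normalized signals of both mga2Δ samples lay above both WT samples in 20 vps genes (58.8%, against 36.4% of all genes) and below both in 4 (11.8%, against 32.8%). Across the 34 genes the arrays' ratios had a Pearson's r of 0.58 and a Spearman's rho of 0.58 (0.91 and 0.78 across all 4964 genes). This is a description only, because genes on the same arrays are not independent.

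**Figure D1:**
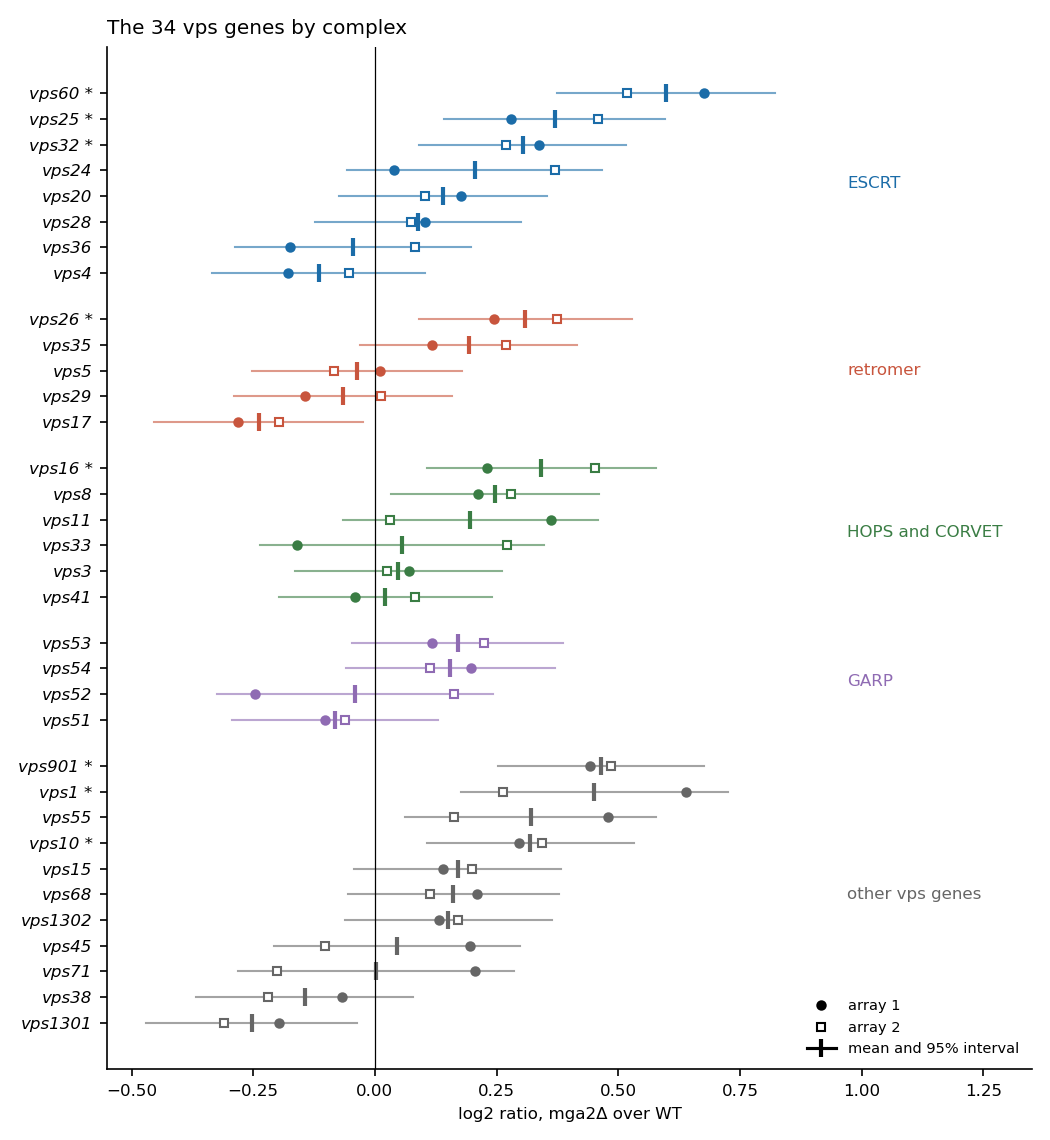
Log2 ratio of mga2Δ over WT (x axis) for each of the 34 vps genes, grouped by complex. Filled circles are array 1, open squares array 2, vertical ticks the mean and lines its 95% interval from limma; asterisks mark the 8 genes with an adjusted p under 0.05, all with positive ratios on both arrays.

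Among ESCRT genes, 3 of 8 were raised (37.5%, against 18.4% of all genes) and 0 lowered. Their median log2 ratio was 0.17 (0.14 on array 1, 0.19 on array 2). The raised genes were vps60, an accessory ESCRT-III subunit, vps25, a subunit of ESCRT-II, and vps32, which forms most of the ESCRT-III filament that constricts the membrane. For vps60 the normalized log2 signals in WT were 9.50 on array 1 and 9.64 on array 2, and in mga2Δ 10.17 and 10.16. Both mga2Δ signals were thus higher than both WT signals, by more than the WT samples differed from each other. The fold was 1.51 (95% interval 1.30 to 1.77, log2 ratio 0.60 ± 0.11, SD, n = 2 arrays, limma adjusted p = 0.00488), the largest of the 34.

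WT signals of vps25 on the log2 scale were 8.40 and 8.34, and mga2Δ signals 8.68 and 8.80. The strains did not overlap, and the fold was 1.29 (95% interval 1.104 to 1.512, limma adjusted p = 0.0291). Signals of vps32 were 10.27 and 10.11 in WT and 10.60 and 10.38 in mga2Δ. Its strains were also separate, although the higher WT signal and the lower mga2Δ signal were close, and its fold of 1.23 (95% interval 1.06 to 1.43) passed narrowly (limma adjusted p = 0.0447). On array 1, vps60 and vps32 rested on 2 spots each.

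The remaining ESCRT genes did not pass. Those with positive ratios on both arrays were vps24, which caps the filament (0.20 ± 0.23, SD, n = 2 arrays), vps20, which starts it (0.14 ± 0.05), and vps28, a subunit of ESCRT-I (0.09 ± 0.02). The vps24 ratio came almost wholly from array 2, at 0.37 against 0.04 on array 1. The ESCRT-II subunit vps36 had ratios of −0.17 and 0.08. The ESCRT gene with the lowest mean was vps4, the ATPase that takes the filament apart after use, with log2 ratios of −0.18 and −0.05 (mean −0.12 ± 0.09, limma adjusted p = 0.382). Its 95% interval, from −0.33 to 0.10, holds no rise as large as the mean ratio of vps60.

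Several ESCRT subunits carry other symbols in fission yeast. Of 9 such genes tested, 5 were raised and 0 lowered, with a median of 0.37. The highest was sst4, the Vps27 orthologue of ESCRT-0, which binds ubiquitinated cargo at the first step, with log2 ratios of 0.77 and 0.98 (mean 0.87 ± 0.15, limma adjusted p = 0.00112). Its ESCRT-0 partner hse1 had 0.34 and 0.77 (mean 0.55, adjusted p = 0.0171). The others raised were did4, the Vps2 orthologue (0.38, adjusted p = 0.0205), sst6, the Vps23 orthologue of ESCRT-I (0.38, adjusted p = 0.024), and did2, an ESCRT-III accessory subunit (0.37, adjusted p = 0.0323). Not passing were cmp7 (0.25), the ESCRT-II gene dot2 (0.24), bro1 (0.08) and ist1 (−0.04), and vta1 was not well above background and was not tested. With the vps-named subunits, 8 of 17 ESCRT genes (47.1%) were raised and 0 lowered, against 18.4% and 10.9% of all genes. The lists were chosen with earlier results of these data known, and the difference in share was not tested.

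**Figure D2:**
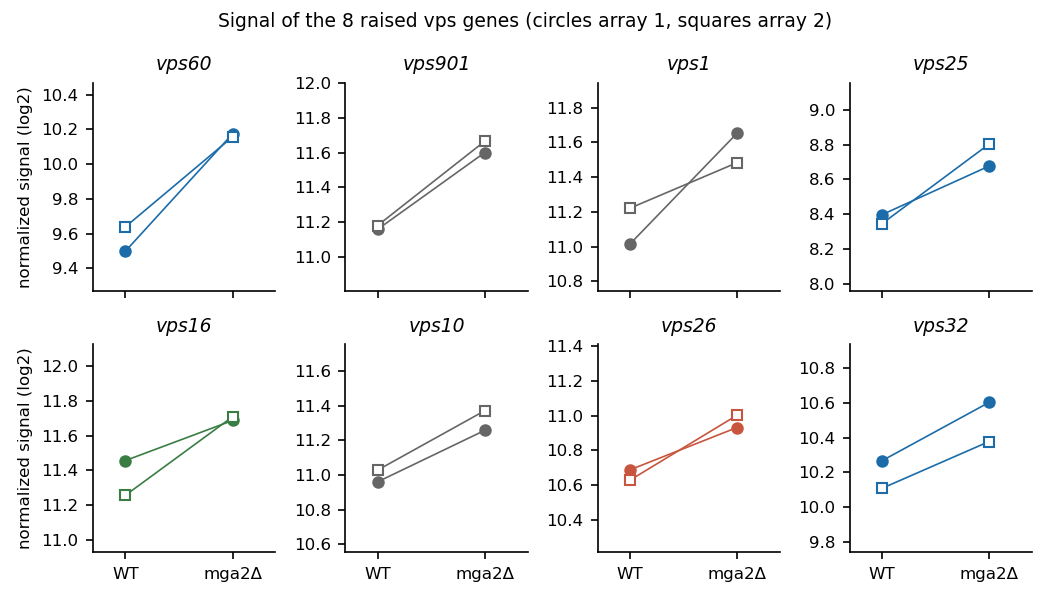
Normalized log2 signal (y axis, each panel spanning the same height) in WT and mga2Δ for the 8 raised vps genes. Circles joined by a line are array 1 and squares array 2; in every panel both mga2Δ values lie above both WT values, with vps60 rising most.

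Retromer genes went different ways, with 1 of 5 raised (20.0%, against 18.4% of all genes) and 0 lowered. Their median log2 ratio was −0.04 (0.01 on each array). The raised gene was vps26, an arch-shaped subunit of the cargo-binding trimer. Its WT signals on the log2 scale were 10.69 and 10.63, and its mga2Δ signals 10.93 and 11.00. The strains did not overlap, at a fold of 1.24 (95% interval 1.06 to 1.44, limma adjusted p = 0.0458), the weakest call of the 8. The scaffold of the trimer, vps35, had ratios of 0.12 and 0.27 and did not pass (mean 0.19, adjusted p = 0.169). The third trimer subunit, vps29, had −0.14 and 0.01 (mean −0.07, adjusted p = 0.638).

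The 2 retromer sorting nexins, which bend the membrane, both had negative mean ratios. For vps17 the log2 signals were 10.90 and 10.93 in WT and 10.62 and 10.73 in mga2Δ, lower in both mga2Δ samples. Its fold was 0.85 (95% interval 0.73 to 0.98, log2 ratio −0.24 ± 0.06, limma adjusted p = 0.0913), short of the threshold. Its partner vps5 had log2 ratios of 0.01 and −0.08 (mean −0.04, adjusted p = 0.796). In the authors' deposited ratios vps17 passed as lowered (log2 ratio −0.32, limma adjusted p = 0.0452). In those ratios the median of all genes was −0.095 and 22.9% of all genes were lowered, against 10.9% in the main setting.

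The list of retrograde sorting partners was also chosen with earlier results of these data known, and its share raised was not tested against all genes. Of all genes, 18.4% were raised and 10.9% lowered. Of the 5 partners tested, 3 were raised and 0 lowered, with a median of 0.57. These were the nexin genes atg20 (0.84 ± 0.13, SD, n = 2 arrays, limma adjusted p = 0.00119), mvp1 (0.57 ± 0.25, adjusted p = 0.0115) and snx41 (0.57 ± 0.27, adjusted p = 0.0132), while atg24 (0.29, adjusted p = 0.062) and snx3 (0.09, adjusted p = 0.578) did not pass. The receptor that retromer recycles, vps10, delivers carboxypeptidase Y to the vacuole. Its log2 signals were 10.96 and 11.03 in WT and 11.26 and 11.37 in mga2Δ. They did not overlap, and vps10 was raised 1.25-fold (95% interval 1.08 to 1.45, limma adjusted p = 0.0372).

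In the tethering complexes, 1 of 10 genes was raised and 0 were lowered, against 18.4% and 10.9% of all genes. Whether these counts differ from all genes was not tested. The median log2 ratio of the 10 tethering genes was 0.11 (0.09 on array 1, 0.14 on array 2). All 6 HOPS and CORVET genes had a positive mean ratio, at a median of 0.13, and 4 of the 6 were positive on both arrays. Raised was vps16, a subunit of the core that both complexes share. Its log2 signals were 11.46 and 11.26 in WT and 11.69 and 11.71 in mga2Δ. These were apart, at a fold of 1.27 (95% interval 1.08 to 1.49, limma adjusted p = 0.0415). The other shared core genes, vps11 (0.36 and 0.03 by array) and vps33, the SNARE-binding subunit (−0.16 and 0.27), did not pass, and the ratio of vps33 changed sign between arrays.

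The subunits that distinguish the tethers did not pass either. The CORVET subunits, which bind early endosomes, were vps8 (0.25 ± 0.05, limma adjusted p = 0.0828) and vps3 (0.05, adjusted p = 0.722). The HOPS subunit vps41, which binds vacuoles, had 0.02 (adjusted p = 0.883), with a 95% interval from −0.20 to 0.24. Among HOPS and CORVET genes under other symbols, the core gene pep3 (Vps18) was raised (0.34 ± 0.01, adjusted p = 0.029) and the HOPS gene vam6 (Vps39) was not called (0.12, adjusted p = 0.369).

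Of the GARP genes 0 of 4 passed, with a median of 0.06 (0.01 on array 1, 0.14 on array 2). By limma's unadjusted p, 0 of the 4 lay under 0.05, against 41.7% of all genes. Mean log2 ratios were 0.17 for vps53, 0.16 for vps54, −0.04 for vps52 and −0.08 for vps51. The vps52 ratio was −0.25 on array 1 and 0.16 on array 2. In the authors' deposited ratios vps51 stood at −0.52 and passed as lowered (limma adjusted p = 0.0141), the largest move of any vps gene between the scanner signals and that table. Of all genes, 22.9% were lowered there. The signal of vps51 was the lowest of the 34, at 6.95 to 7.07 on the log2 scale over the 4 samples.

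Set side by side, the ESCRT median of 0.17 was above that of the tethering complexes (0.11) and of retromer (−0.04), and this order was the same on each array. It was also the same under all 9 other normalizations, filters and value tables tried for the medians. Not all of these could change it. The filters on probes kept every vps gene and left the medians as they were, and spike-in centring moved every gene by the same amount. The difference between complexes was not tested: an exact sign-flip test over 2 arrays cannot give a p below 0.5, and subunits are not replicates. The ranges of the complexes overlapped: ESCRT genes spanned −0.12 to 0.60, retromer genes −0.24 to 0.31 and tethering genes −0.08 to 0.34.

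**Figure D3:**
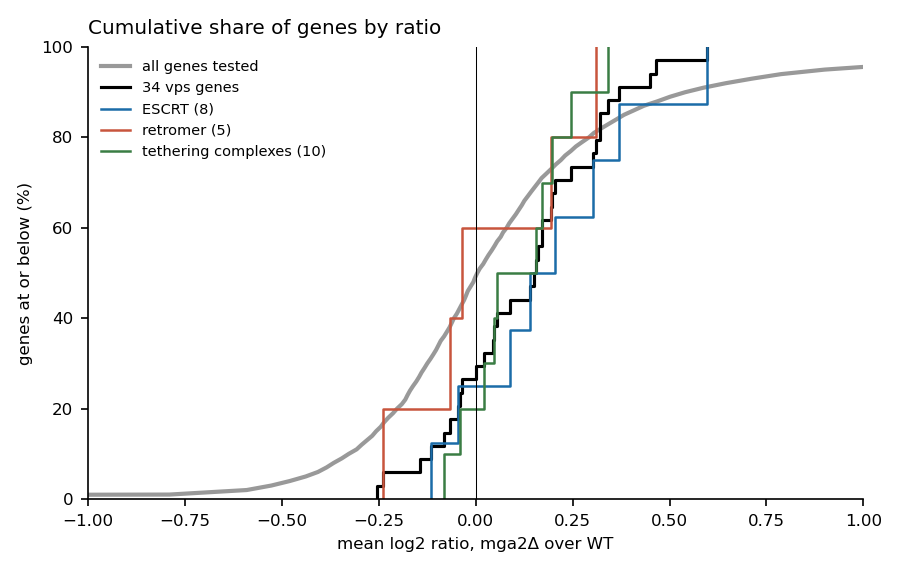
Percentage of genes (y axis) with a mean log2 ratio at or below the value on the x axis, for all 4964 genes tested (grey), the 34 vps genes (black) and the ESCRT, retromer and tethering genes. The vps curve crosses 50% at 0.15, to the right of all genes, but ends at 0.60 where the curve of all genes goes on; the x axis is cut at −1 and 1.

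The other vps genes had 3 raised (27.3%, against 18.4% of all genes) and 0 lowered of 11, with a median of 0.16. The first was vps901, which activates the endosomal GTPase Rab5. Its log2 signals were 11.16 and 11.18 in WT and 11.60 and 11.67 in mga2Δ, so that the gap between strains was far wider than either pair. The fold was 1.38 (95% interval 1.19 to 1.60, log2 ratio 0.46 ± 0.03, limma adjusted p = 0.0103). The second, vps1, encodes a dynamin-related GTPase that cuts vesicles from membranes. Its log2 signals were 11.01 and 11.22 in WT and 11.65 and 11.48 in mga2Δ. They did not overlap, but the ratio was 0.64 on array 1 and 0.26 on array 2, so its fold of 1.37 (95% interval 1.13 to 1.65, adjusted p = 0.0283) rests mostly on array 1. The third was the receptor vps10, given above.

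Next to these, vps55, a small endosomal membrane protein, had ratios of 0.48 and 0.16 and missed the threshold (mean 0.32, limma adjusted p = 0.0666). It passed as raised without background correction (limma adjusted p = 0.0495), with scale normalization (0.0253), with trend and robust settings (0.0202) and with spike-in centring (0.00955). Of all genes, 20.0%, 21.4%, 20.6% and 38.9% were raised there. In the other settings vps55 did not pass at an adjusted p of 0.05. In budding yeast its product works with Vps68, and vps68 stood at 0.16 ± 0.07 (adjusted p = 0.225). The pair of Vps13-type lipid transfer proteins had opposite signs. Ratios of vps1301 were −0.20 and −0.31 (mean −0.25 ± 0.08, adjusted p = 0.0805), the lowest of the 34, and those of vps1302 were 0.13 and 0.17 (mean 0.15 ± 0.03, adjusted p = 0.245). Signals of vps1301 were lower in both mga2Δ samples (9.24 and 9.24 on the log2 scale, against 9.44 and 9.55 in WT). It passed as lowered with the scanner software's processed signals (−0.34, adjusted p = 0.0349) and in the authors' deposited ratios (−0.37, limma adjusted p = 0.0261). Of all genes, 16.4% and 22.9% were lowered in these settings, where the medians of all genes were −0.039 and −0.095. The vesicle fusion gene vps45 had 0.19 and −0.10, and the chromatin gene vps71 0.21 and −0.20, so neither had a direction.

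The genes vps15 and vps38 belong to the phosphatidylinositol 3-kinase complexes, which make the lipid that marks endosomes. The regulatory kinase vps15 had a mean of 0.17 (limma adjusted p = 0.201). The subunit of the form that acts in vacuolar sorting, vps38, had ratios of −0.07 and −0.22 (mean −0.14 ± 0.11, adjusted p = 0.287). The catalytic subunit pik3 was raised (0.48 ± 0.05, adjusted p = 0.00945), as were atg6 (0.74 ± 0.26, adjusted p = 0.00465), shared by both forms, and atg14 (0.76 ± 0.42, adjusted p = 0.0102), which defines the form used in autophagy. These were 3 of the 6 lipid kinase partners tested, with 0 lowered, where 18.4% of all genes were raised and 10.9% lowered. The other 3 did not pass, namely atg38 (0.38, adjusted p = 0.0659), vac14 (0.25, adjusted p = 0.085) and fab1, whose ratio was −0.06 on array 1 and 0.50 on array 2 (adjusted p = 0.282). Of these, vac14 and fab1 do not encode subunits of the phosphatidylinositol 3-kinase complexes. The signals of vps38 were lower in both mga2Δ samples while those of atg14 were higher, with ratios of 0.46 and 1.05. Whether the 2 genes' ratios differ was not tested.

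Outside the vps name, 58 genes of 7 partner lists were tested, of which 20 (34.5%) were raised and 0 lowered, against 18.4% and 10.9% of all genes. Because the lists were chosen with earlier results of these data known, their higher share cannot be read as a result. The difference was not tested. The vacuolar hydrolases stood highest, with all 3 tested members raised and a median of 1.34. They were isp6 (1.61 and 1.80, mean 1.71, limma adjusted p = 5.92e-05) and psp3 (1.19 and 1.47, mean 1.33, adjusted p = 0.000241), both subtilisin-type proteases, and cpy1, carboxypeptidase Y (0.97 and 1.72, mean 1.34 ± 0.53, adjusted p = 0.00196). With median centring isp6 and psp3 alone of the 20 passed, and cpy1 stood at 0.84 (adjusted p = 0.0898). In the fusion machinery 5 of 10 were raised. They were the endosomal SNARE genes pep12 (0.87, adjusted p = 0.000984) and fsv1 (0.83, adjusted p = 0.000926), the GTPase genes ypt7 (Rab7, 0.69, adjusted p = 0.0026) and ypt5 (Rab5, 0.42, adjusted p = 0.015), and pep3. The SNARE genes vsl1 (0.15, limma adjusted p = 0.272) and vti1 (−0.15 and −0.21 by array, adjusted p = 0.186) did not pass. Nor did the GTPase gene ypt71 (0.17, adjusted p = 0.191), vam6 or pep7 (0.07, adjusted p = 0.642).

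Other lists hardly moved. Of 11 genes of adaptors that act in exit from the Golgi, 0 passed, and their median was 0.00 (range −0.13 to 0.22). By limma's unadjusted p, 1 of the 11 lay under 0.05, against 41.7% of all genes. At the adjusted threshold 18.4% of all genes were raised and 10.9% lowered. Of 14 genes of the V-ATPase, the pump that acidifies the vacuole, only vma4 was raised (0.32, limma adjusted p = 0.0349), at a list median of 0.04. With median centring vma4 stood at 0.14 and did not pass.

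**Figure D4:**
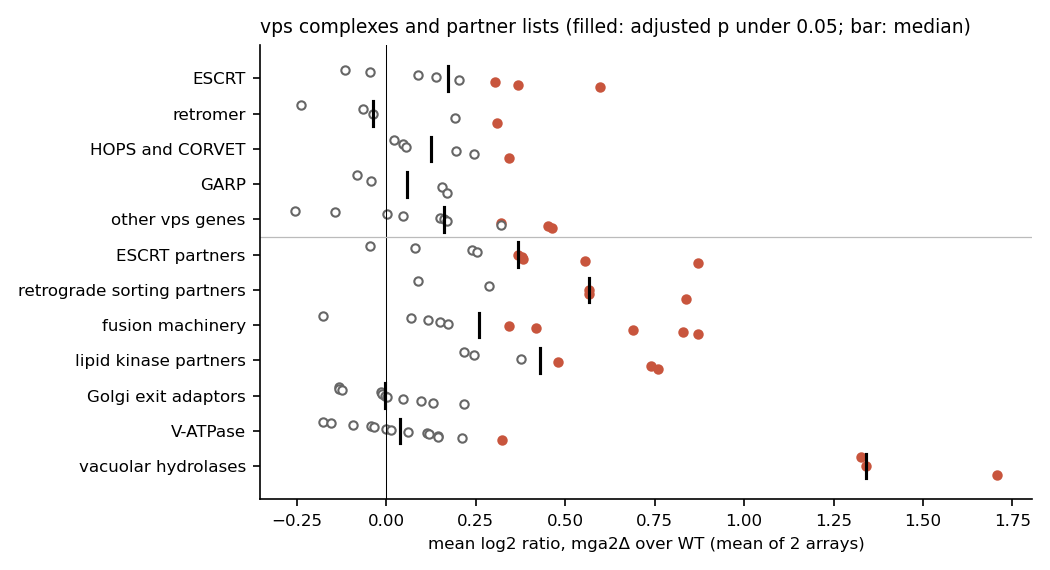
Mean log2 ratio of mga2Δ over WT (x axis) of each gene in the 5 vps groups (above the line) and the 7 partner lists (below it). Filled points passed the test, open points did not, and black bars are medians; vacuolar hydrolases lie at 1.33 to 1.71, and Golgi exit adaptors and V-ATPase genes lie near 0.

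Along the chromosomes, of the 16 protein-coding genes next to the 8 raised vps genes, 1 was raised and 3 were lowered, and of the 50 tested next to the other vps genes 9 were raised and 4 lowered. Of all genes tested, 18.4% were raised and 10.9% lowered. Whether these counts differ from all genes was not tested. The raised neighbour was str1, a siderophore transporter gene beside vps901 (log2 ratio 2.95). Both neighbours of vps25, smg1 and usp102, were lowered (−0.40 and −0.46), while vps25 was raised.

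Both the calls and the ratios depended on how the arrays were processed. The 3 genes with the highest ratios, vps60, vps901 and vps1, passed with processed signals and with the authors' deposited ratios, and 8 of 8 kept a positive ratio in every setting tried. With median centring in place of loess, ratios of the 8 lay between 0.30 and 0.62 and 0 of 34 vps genes passed (limma adjusted p of the 8 from 0.128 to 0.298, where 2.94% of all genes were raised and 0.524% lowered). Processed signals gave 4 raised and 1 lowered (17.8% and 16.4% of all genes), and the deposited ratios 3 raised and 3 lowered (15.1% and 22.9% of all genes). With the prior degrees of freedom halved, vps60 and vps901 alone passed (9.93% of all genes raised). When ratios were centred on spike-in RNAs, which moved the median of all genes to 0.20, 20 vps genes were raised and 0 lowered, where 38.9% of all genes were raised and 3.77% lowered. The vps median lay above the median of all genes by 0.15 in the main setting and by 0.15 to 0.18 in the 9 others. Spike-in centring moved all genes alike and could not change this difference, and the filters on probes left the vps median as it was.

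**Figure D5:**
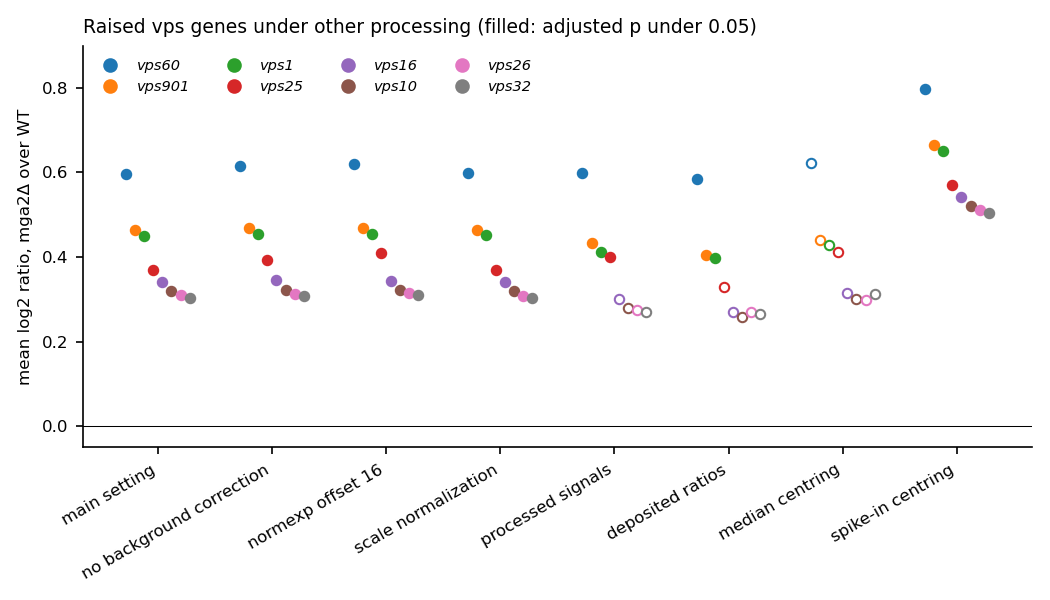
Mean log2 ratio of mga2Δ over WT (y axis) of the 8 raised vps genes under the main setting and 7 alternatives (x axis). Filled points passed at an adjusted p under 0.05 and open points did not; all 8 stay above 0, and all 8 are open with median centring.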

How the data were processed

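Total RNA (400 ng per sample) was copied from oligo-dT primers and labelled with spike-in RNAs added, per the labels' protocols. Median spot and background intensity values, processed intensity values and a log10 ratio of Cy5 over Cy3 come from Agilent Feature Extraction 10.5.1.1, per the file headers. The authors' deposited value table gives 1 log2 ratio per probe, and correlation with the scanner log ratios showed its direction to be mga2Δ over WT for either array, with medians of −0.078 and −0.115. No source used here gives its normalization, and Partek is named only as a tool in the submitters' processing notes.

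Both arrays lay on 1 slide. Normexp background correction (offset 50) was followed by loess within arrays, where control and outlier spots had weight 0 (limma 3.58.1, R 4.3.3). Outlier spots were left out, spots of a probe averaged, and array 2 turned in sign. A probe entered the fit if 2 or more of its spots on each array were well above background in either channel. Mean ratios were tested two-sided against 0 (lmFit, eBayes), and p-values were adjusted by Benjamini-Hochberg over all 4964 genes. Signals per strain are after loess and Aquantile normalization. Symbols came from a RefSeq table of assembly ASM294v3 (5021 probes matched by locus tag, 3 by alias, 33 not), and 5 of 68 listed partner symbols were not matched. The steps were also run on simulated spots, whose smallest true change was larger than the fold of every raised vps gene except vps60. No outcome of that run is used here. The rule for named genes took mga2, every vps gene, cpy1 and up to 4 called genes of each partner list; did2, pep3 and the partners that did not pass were named after their values were seen. Members, lists and tests were chosen with earlier results of these data known. Tables and figures used Python 3.11.15, pandas 2.3.3 and matplotlib 3.10.9. Alternatives are given in the closing section.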

Additional observations from a re-analysis of the deposited data

How the results depend on the processing

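The count of 8 raised vps genes stayed within 1.5 times in 7 of 12 alternatives. It was 4 with processed signals, 0 with median centring, 20 with spike-in centring, 3 with the deposited ratios and 2, vps60 and vps901, with the prior degrees of freedom halved. Lowered genes numbered 1 with processed signals, 3 with the deposited ratios and 2 at an adjusted p of 0.10 (5.88%, where 16.4% of all genes were lowered), against 0. The vps median of 0.153 was 0.165 without background correction and with offset 16 (0.1648 and 0.1646), 0.139 with processed signals, 0.157 with median centring, 0.354 with spike-in centring and 0.0859 with the deposited ratios, and 0.136 to 0.138 on single arrays. The ESCRT median was 0.117, 0.373 and 0.0897 with processed signals, spike-in centring and deposited ratios. For the tethering complexes these were 0.0651, 0.306 and 0.0137, with 0.0936 to 0.138 on single arrays. For retromer they were −0.117, 0.164 and −0.124, with −0.0412 at offset 16, −0.000631 with median centring and 0.0113 to 0.0127 on single arrays.

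Sign changes met genes that passed in neither setting. Spike-in centring added the same amount to the ratio of every gene. By that shift alone vps36 (0.155), vps4 (0.085), vps5 (0.164), vps29 (0.135), vps52 (0.159), vps51 (0.119) and vps38 (0.0566) became positive. With processed signals vps33 (−0.0105), vps3 (−0.0176), vps41 (−0.0681) and vps71 (−0.0482) became negative, and with the deposited ratios vps28 (−0.00257), vps33 (−0.0542), vps3 (−0.0467), vps41 (−0.0852), vps45 (−0.00831) and vps71 (−0.159). Of the 20 raised partners, 2 (isp6 and psp3) passed with median centring, 10 with halved prior degrees of freedom and 17 with the deposited ratios. Without array 1, vps1 stood at 0.26 in place of 0.45; without array 2, hse1 stood at 0.34, snx41 at 0.37 and atg14 at 0.46. The mga2 ratio kept its size but did not pass with the trend and robust settings (adjusted p = 0.063). The causes of the changes other than the spike-in shift were not tested. Each array holds both strains of 1 replicate pair, so the ratio tested is already a paired value.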
